A study of Mus musculus with 617 samples.

Results

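Of the 617 single cells of a mouse series, those of the epiblast around implantation were compared: 83 cells labelled as epiblast of mouse embryos at embryonic day (E) 5.5 against 23 labelled as epiblast at E4.5. The cells were chosen by their tables and column names, with no use of expression: all columns of the post-implantation table, and those columns of the blastocyst table that carry no index suffix. The E4.5 cells came from embryos of a C57BL/6J mother and a CAST/EiJ father, with no sex in the labels, and bear 7 different title numbers (4 to 10), whose meaning the labels do not give. The E5.5 cells came from C57BL/6J embryos with both parents of that strain and are labelled male (63 cells) or female (20 cells). Their title numbers run from males to females, so that sex and position in that run cannot be told apart. The 23 cells labelled as inner cell mass at E3.5 share the table and the cross of the E4.5 cells and serve as the neighbouring stage. The titles of both groups begin with lateblast, some title numbers occur in both, and the E3.5 titles add an index suffix. The stages of both groups are taken from the labels. Of the rest of the series, embryonic stem (ES) cells in 2i or serum, epiblast stem (Epi) cells and motor neurons, all from the cross with CAST/EiJ, are used only to set levels side by side. The labels name no animal, so each stage counts as 1 sample. Stage, table and cross cannot be told apart, and no p-value is given.

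Around implantation the epiblast, the lineage that forms the embryo proper, leaves naive pluripotency and becomes a polarised epithelium. The naive network (Klf, Esrrb, Tfcp2l1, Zfp42, Dppa genes) is shut off, while genes of formative and primed pluripotency such as Fgf5 and Otx2 come on and the de novo DNA methyltransferases are induced. The epiblast at this time lies between the polar trophectoderm, which becomes extraembryonic ectoderm, and the primitive endoderm, which gives rise to visceral endoderm, so each of these tissues can enter a sample of picked cells. Primed cells in culture are known for a glycolytic metabolism, and naive cells for using both glycolysis and oxidative phosphorylation.

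The values were fragments scaled by gene length and library size (FPKM) as deposited, rescaled so that the protein-coding genes of each cell add up to 1000000; levels below are in these scaled units. The median number of protein-coding genes at 1 unit or more was 8607 per E4.5 cell (range 6598 to 10439) and 9801 per E5.5 cell (7771 to 10870). Read depth is unknown, because the files give no counts. The tables differ in level: protein-coding FPKM added up to a median of 307635 per E4.5 cell and 698989 per E5.5 cell.

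The 4 markers of the stage went the way of the labels. Fgf5, a growth factor of the primed epiblast, was listed at 0 in all 23 E4.5 cells (exact 95% Clopper-Pearson interval of the share 0 to 14.8%, which covers counting error only) and was at 1 or more in 83 of 83 E5.5 cells (95.7 to 100%). Otx2, a homeobox factor of the primed epiblast, was at 1 or more in 11 of 23 E4.5 cells (26.8 to 69.4%) and 83 of 83 E5.5 cells. Zfp42 (Rex1), a naive marker, was at 1 or more in 23 of 23 and 64 of 83 cells (66.6 to 85.6%). Dppa5a, a further naive marker, was present in every cell of both stages, at a far lower level at E5.5. The labelled sexes also held: the Y-linked gene Eif2s3y was at 1 or more in 63 of 63 male and 0 of 20 female E5.5 cells.

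Many of the cells labelled E4.5 epiblast, however, carried transcripts of the trophectoderm. Krt18, a keratin of that epithelium, had a lowest, median and highest level of 1.54, 2921 and 8179 among the E4.5 cells. The 8 trophectoderm markers (Cdx2, Gata3, Tfap2c, Tead4, Krt7, Krt8, Krt18 and Elf5) summed to between 46.7 and 10326 per cell. In 15 of 23 cells the sum was 1000 or more: all cells of title numbers 5, 7, 8 and 10 and 3 of the 7 cells of title number 9. Cdx2, a defining factor of the trophectoderm, was at 1 or more in 21 of 23 E4.5 cells, at a mean of 160.3 ± 154 (SD over cells). The E3.5 cells held less of it, with a mean Cdx2 of 40.9 ± 55.6 and a mean Krt18 of 677 ± 863. Pou5f1 (Oct4), the shared pluripotency factor, was at 1 or more in all 23 E4.5 cells, spanning 56.4 to 2234.

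Primitive endoderm transcripts were also present at E4.5. Sox17, a factor of that lineage, reached 999, and 16 of 23 cells had 3 or more of 9 primitive endoderm markers at 10 or more. Only 5 E4.5 cells had fewer than 3 primitive endoderm and fewer than 3 extraembryonic ectoderm markers at that level. They belong to title numbers 6 (2 cells) and 9 (3 cells), with Krt18 at 9.92 to 145.95, Pou5f1 at 1321 to 2234 and Nanog at 320.0 to 938. Their trophectoderm sums were 46.7 to 349.9. The label of epiblast is therefore carried through the text only as the name of the group, and the groups are called E4.5 and E5.5 cells.

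The E5.5 cells held transcripts of these marker lists too, and whether they came from other cells was not tested. Of 83 cells, 57 had 3 or more primitive endoderm and 50 had 3 or more trophectoderm markers at 10 or more. At E4.5 these counts were 16 and 21 of 23. The trophectoderm sums were lower at E5.5, with a median of 264.7 against 4180 at E4.5. Transcripts of the visceral endoderm, the layer around the epiblast, were found in nearly every cell: Ttr, a transport protein of that layer, was at 1 or more in 82 of 83 E5.5 cells and listed at 0 in all E3.5 and E4.5 cells. The 9 visceral endoderm markers summed to a median of 750.1 in male and 3191 in female cells. Markers of the extraembryonic ectoderm, the trophectoderm derivative, were at 10 or more for at least 3 of 10 genes in 29 of 83 cells (16 male, 13 female). Prl8a2, a hormone of the maternal decidua, was at 1 or more in 15 of 63 male and 19 of 20 female cells. Blood markers reached 3 genes at 10 or more in no cell of either stage. Doublets and free RNA were not assessed, and the part of these transcripts in any result below was not tested.

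Because of these markers many values are also given for few-marker cells. These are the 5 E4.5 cells above and the 54 E5.5 cells (47 male, 7 female) with fewer than 3 extraembryonic ectoderm markers at 10 or more, a choice made after the data had been seen. The extraembryonic ectoderm list holds Elf5, Esx1, Ascl2, Rhox6, Rhox9, Wnt7b, Sox21, Ets2, Cdx2 and Eomes. The name refers to these lists only. Of the 5 E4.5 cells, 4 still had 3 or more trophectoderm markers at 10 or more. Of the 54 E5.5 cells, 46 had 3 or more visceral endoderm, 30 primitive endoderm and 26 trophectoderm markers at that level. The visceral endoderm list was not used for the choice, since 75 of 83 E5.5 cells had 3 or more of its genes at 10 or more. In the plot of lineage markers the few-marker cells are drawn in red. Of the 5 E4.5 cells 3 share title number 9, so any value for few-marker cells rests on few E4.5 cells.

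**Figure D1:**
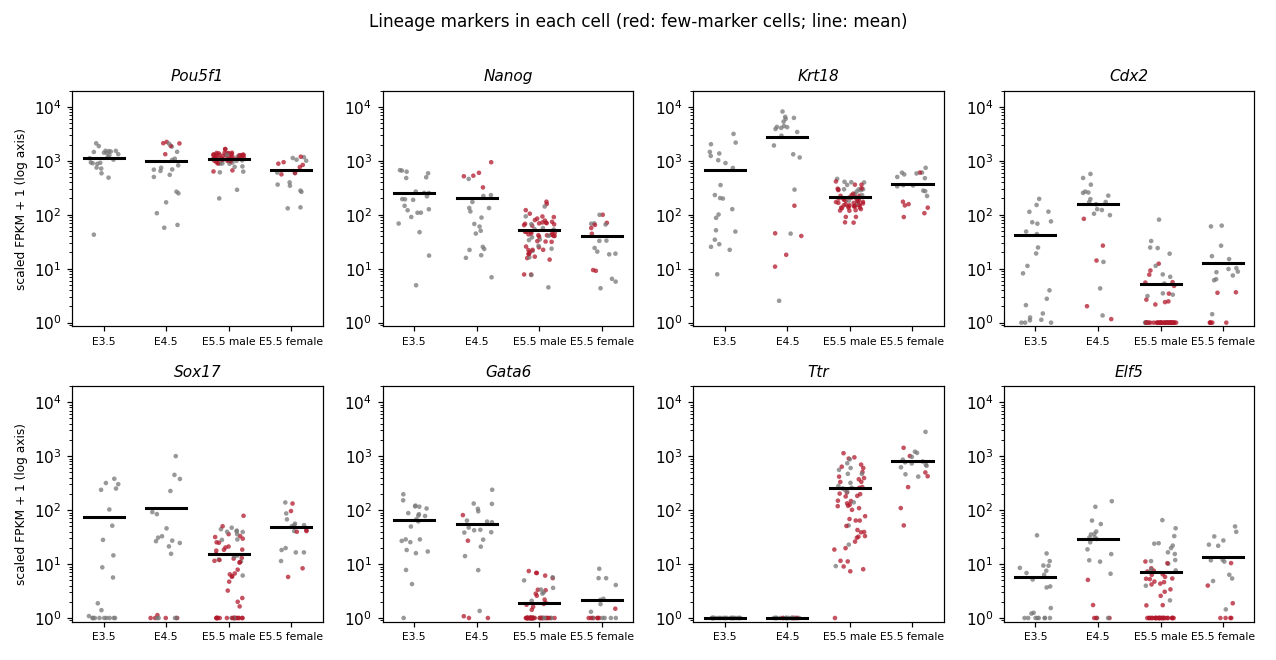
Level of 8 lineage markers in each cell (scaled FPKM + 1, log axis) for E3.5 (23 cells), E4.5 (23), male E5.5 (63) and female E5.5 (20) cells. Points are cells, black lines are means and red points are few-marker cells. Krt18 and Cdx2 are low in most red and high in most grey cells at E4.5, and Ttr is at 0 before E5.5. Cdx2, Elf5 and, at E4.5, Sox17 and Gata6 are among the markers that chose the red cells.

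Across the protein-coding genome the stages differed widely. Of 13028 protein-coding genes with a mean of at least 1 in either stage, 2848 had a mean at least 2-fold higher at E5.5 (21.9% of those tested) and 3160 at least 2-fold lower (24.3%). Fold changes are log2 differences of (mean + 1) between stages, E5.5 minus E4.5, so they understate the change of low genes. Requiring further that both E5.5 sexes lay beyond all 7 title-number means of E4.5 left 2203 higher (16.9%) and 1044 lower (8.01%) genes. In the few-marker cells, 3876 of 12519 genes were higher (31%) and 2802 lower (22.4%). These shares are the background of all few-marker counts below. Of the genes past 2-fold in all cells, 2330 higher genes (81.8%) and 1959 lower genes (61.99%) were past it in the few-marker cells too, making up 60.1% and 69.9% of the calls there.

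The balance of higher and lower genes rested on the scaling. Higher genes made up 47.4% of calls in the main scaling and 50.4% with a common upper quartile. The share was 61.98% when cells were scaled over all rows, and 84.6% for the deposited FPKM without rescaling, where the median gene stood 1.02 higher in log2 at E5.5. With a mean of log2 values over cells it was 65.2%. Among lists with a median near 0 some change sign with this choice, and they are named below.

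The lists for other cell types moved with the markers described above. All 8 trophectoderm genes were at least 2-fold lower at E5.5, beside 24.3% of all genes, with a median log2 difference of -2.95. In few-marker cells 4 were higher and 3 lower, with a median of 0.83. Cdx2 and Elf5 of this list were also among the markers that chose those cells, so their values there are partly set by the choice. Of 9 primitive endoderm genes 2 were higher and 5 lower (median -1.43, and 2.81 in few-marker cells, which at E4.5 were chosen for low levels of this list). Of 9 visceral endoderm genes 8 were higher and none lower, with or without the other cells (medians 4.80 and 4.95). Of 9 extraembryonic ectoderm genes 1 was higher and 4 lower, of 5 decidua genes all were higher, and of 2 blood genes both were lower. Of 5 genes of the list for X inactivation and the Y chromosome none passed 2-fold, and the 6 genes of the 2-cell embryo all had means under 1.

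**Figure D2:**
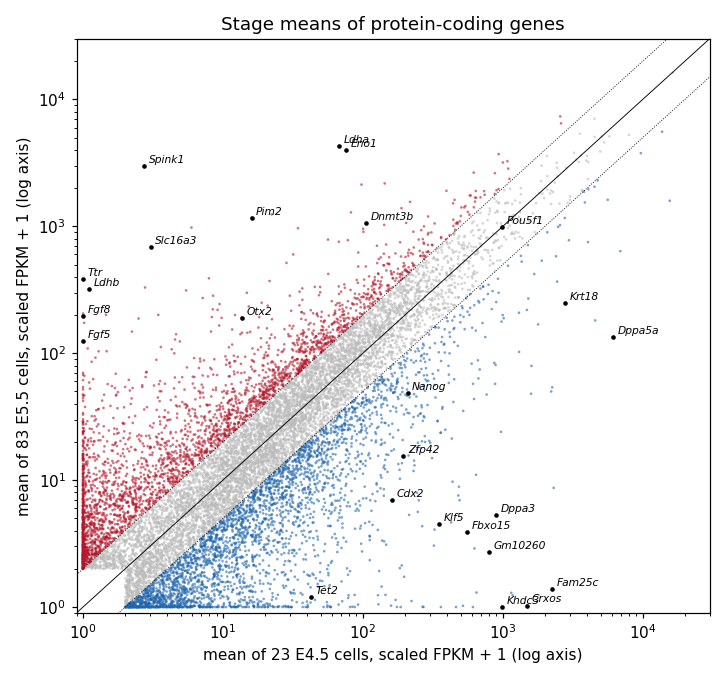
Mean level at E5.5 (83 cells) against E4.5 (23 cells) for 13028 protein-coding genes, in scaled FPKM + 1 on log axes. The solid line marks equal means and the dotted lines 2-fold; red genes are at least 2-fold higher and blue genes at least 2-fold lower at E5.5, and named genes are marked in black. Fgf5, Fgf8 and Ttr lie on the left edge, where E4.5 is 0.

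Naive pluripotency genes were lower almost throughout. Of 17 genes, 16 were past 2-fold lower and none higher, against 24.3% lower genes among all tested. The list median was -4.53 beside -0.00 for all genes. In the few-marker cells 17 of 17 were lower, with a median of -5.78.

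Dppa5a, an RNA-binding protein of naive cells, had a lowest, median and highest level of 3396, 5549 and 10904 at E4.5 and of 18.1, 126 and 265.1 at E5.5. The stages did not overlap in any cell, and the log2 difference was -5.52 (-5.78 in few-marker cells). Zfp42 had 25.8, 114.3 and 888 at E4.5, and 0, 4.29 and 148 in male and 0, 9.93 and 128.05 in female E5.5 cells. Its cells overlapped between stages, and its log2 difference was -3.66 in all cells and -6.53 in few-marker cells. At E5.5 it spanned 0 to 17.5 in the 54 few-marker cells and 0 to 148 in the 29 cells with extraembryonic ectoderm markers. Without the E4.5 cells of title number 9 it was -2.81.

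Dppa3 (Stella), a maternal and germ cell factor, gave 18.995, 809.9 and 2302 at E4.5 and 0, 0 and 33.04 at E5.5, a difference of -7.42 (-7.96 in few-marker cells), with a few low E4.5 cells inside the E5.5 range. Klf5, a Krüppel-like factor of both naive epiblast and trophectoderm, gave 86.1, 311 and 864 and 0, 0 and 23.8, with no overlap between cells and a difference of -6.27. Its level in the 5 few-marker E4.5 cells, 86.1 to 311, did not exceed the median of all 23, and the difference there was -6.31. Fbxo15, an F-box gene bound by Oct4 and Sox2, also showed no overlap, with 211 to 1511 at E4.5 and 0 to 30.5 at E5.5.

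Among the remaining members, Klf2 (-4.78; -5.85 in few-marker cells), Klf4 (-4.72; -5.91), Tfcp2l1 (-4.52; -5.66), Tbx3 (-3.92; -4.89), Pecam1 (-4.53; -5.73) and Spp1 (-5.99; -7.12) were lower with all title numbers above both sexes. Without title number 6 Pecam1 differed by -3.92. Esrrb, which naive epiblast shares with extraembryonic ectoderm, differed by -2.61 in all cells and by -5.42 in few-marker cells. Nr5a2, a nuclear receptor, was at a mean of 17.6 at E4.5 and Tcl1, a kinase cofactor, at 58.01, and both were listed at 0 in all 83 E5.5 cells. Prdm14, a repressor that guards naive pluripotency, was at 1 or more in 12 of 23 and 2 of 83 cells, with a difference of -4.10 (-3.29 without title number 9). Nr0b1 alone stayed within 2-fold, at -0.57, with a mean of 17.1 in male and 50.9 in female E5.5 cells. In few-marker cells it differed by -3.98.

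**Figure D3:**
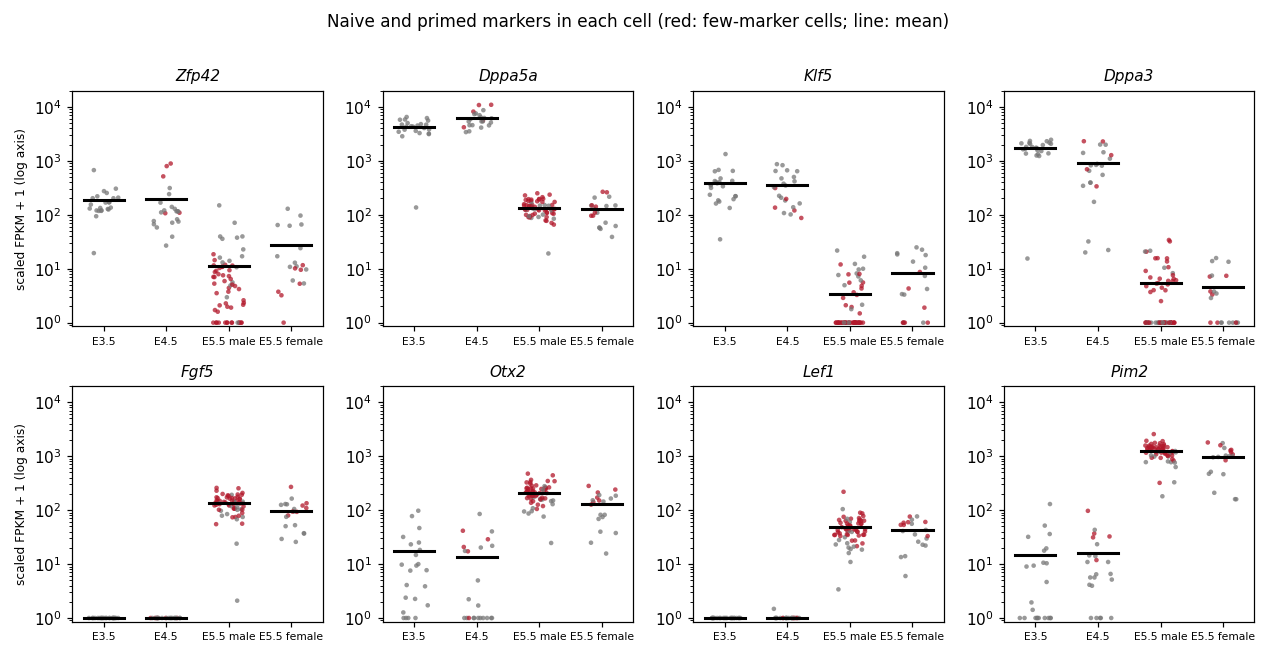
Level of 4 naive markers (top) and 4 primed markers (bottom) in each cell, in scaled FPKM + 1 on a log axis, for the same groups as before. Points are cells, lines are means and red points are few-marker cells. The naive markers are high at E3.5 and E4.5 and low at E5.5, and the primed markers the reverse.

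Genes of formative and primed epiblast went the other way. Of 14 genes, 10 were past 2-fold higher and 2 lower, with a median of 2.93, against 21.9% higher among all genes. In the few-marker cells 10 of 13 tested were higher and 1 lower. All 10 higher genes had both E5.5 sexes above every title number, as did 2203 of all 2848 higher genes.

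Fgf5 ranged over 1.09, 133.3 and 257.02 (lowest, median, highest) in male and 24.7, 93.0 and 267.9 in female E5.5 cells, with no fold against a stage at 0. Otx2 gave 0, 0.704 and 83.7 at E4.5 and 14.7, 183 and 472 at E5.5, overlapping at their edges, and a difference of 3.81 (3.39 in few-marker cells). Lef1, the factor that carries Wnt signals to DNA, reached at most 0.477 at E4.5 and spanned 2.39 to 217 at E5.5, so that no cells overlapped (difference 5.51; 5.73 in few-marker cells). Pim2, a serine/threonine kinase, gave 0, 5.56 and 95.8 and 158, 1179 and 2558, again with no overlap, and a difference of 6.19 (5.01 in few-marker cells, 7.06 without title number 9).

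The neural-lineage factors Sox11 (0.157 to 24.2, difference 4.45), Sall2 (0.2 to 19.12, 4.07) and Pou3f1 (Oct6; 0.196 to 15.2, 3.76) were near 0 at E4.5 and modest at E5.5. Zic5 (2.11), Sox3 (2.01) and Zic2 (1.44) differed less, and Zic2 stayed within 2-fold in few-marker cells (0.75). Tcf15 (-2.82), a factor of the exit from the naive state, and Foxd3 (-1.34), a forkhead repressor, were lower at E5.5 than at E4.5; Tcf15 differed by -2.05 without title number 7. Grhl2 (-0.65), an epithelial factor, stayed within 2-fold.

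Among the core factors Pou5f1 kept its mean level while Nanog and Sox2 were lower. Pou5f1 had a mean of 986 ± 743 at E4.5 and 986 ± 343 at E5.5 (SD over cells), a difference of -0.00, while its median went from 742 to 1045. In few-marker cells, whose E4.5 mean was 1932, it differed by -0.77. Nanog gave 5.93, 114.04 and 938 and 3.34, 40.8 and 174, a difference of -2.10 (-3.46 in few-marker cells), and Sox2 gave 3.54, 10.6 and 103.3 and 1.81, 7.22 and 27.7, a difference of -1.69 (-2.77). The cells of both genes overlapped between stages, and without rescaling both stayed within 2-fold, at -0.93 and -0.59. Utf1, a chromatin factor of pluripotent cells, was higher (1.17) in all cells but not in few-marker cells (0.21). Lin28a, the blocker of let-7 maturation, was higher in both (2.99 and 5.74), and its paralog Lin28b likewise (2.61 and 3.87). Trim28, a corepressor that silences retroviral repeats, was lower in both (-2.05 and -2.46), and so was Dppa2 (-4.36 and -6.49), an activator of early embryonic genes. Of the 10 core genes 2 were higher and 5 lower, beside 21.9% and 24.3% of all genes, and the list median, -0.97, was positive without rescaling (0.19).

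The enzymes that write and erase DNA methylation moved apart. Dnmt3b, a de novo methyltransferase, ranged over 14.6, 74.2 and 471 at E4.5 and 184, 1091 and 1934 at E5.5, a difference of 3.32 (4.68 in few-marker cells). Dnmt3a, the other de novo enzyme, gave 1.12, 73.7 and 266.7 and 52.2, 644 and 1364, a difference of 2.75 (4.43). Both had higher means in male than in female E5.5 cells, 1148 against 749 for Dnmt3b. The 5 few-marker E4.5 cells had lower means of both than all 23, 32.5 against 91.7 for Dnmt3a. For Dnmt3b both E5.5 sexes were at least 2-fold above each of the 11 other groups of the series, all of the CAST/EiJ cross. Stage, cross and table cannot be told apart for this pattern.

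Dnmt3l, their catalytically inactive partner, was lower at E5.5 (-3.14), with 0.737, 178 and 976 at E4.5 and 0, 19.2 and 168 at E5.5 and much overlap. Tet2, which oxidises methylcytosine, was present in all 23 E4.5 cells (7.99 to 171) and at 1 or more in 6 of 83 E5.5 cells, a difference of -5.15 with no cells overlapping. Tet1 was lower by less (-1.50), and Tet3 stayed within 2-fold (-0.36). The maintenance enzyme Dnmt1 (1.19) and its cofactor Uhrf1 (1.29) were higher, Uhrf1 not in few-marker cells (0.37). In all, 4 of 8 genes were higher and 3 lower, beside 21.9% and 24.3% of all genes. In few-marker cells 3 were higher and 3 lower, beside 31% and 22.4% of all genes there.

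Germline genes, many of which are known targets of promoter methylation, were mostly low. Of 16 tested of 17, 10 were past 2-fold lower and 1 higher, against 24.3% and 21.9% among all genes. In few-marker cells 9 of 15 were lower. Both sexes were below every title number in 1044 of all 3160 lower genes, and in 3 of these 10. These were Stk31, a testis kinase (23.7 to 1.71, difference -3.19), Rpl10l, a testis ribosomal protein (99.3 to 6.17, -3.81), and Piwil2, a piRNA-binding protein (6.3 to 1.03, -1.84). Dazl, an RNA-binding protein of germ cells, differed by -3.42 in all cells, -0.67 in few-marker cells and -2.58 without title number 5. Ddx4 (Vasa) was the member past 2-fold higher (1.82 to 4.93), and not in few-marker cells (-0.07).

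The promoters of this list shared a short sequence. Among RefSeq promoter windows of the 250 bases before the first listed start (build GRCm38.p6, 1 window per gene), the letters CACGTG, the palindromic E-box, were found in 10 of 16 germline genes with a window (62.5%). They were found in 850 of 10197 windows of all genes tested (8.34%), in 177 of 2423 windows of lower genes (7.30%) and in 5 of 9 windows of the lower germline genes (55.6%). The shorter ACGTG, searched on both strands and contained in CACGTG, was in 12 of 16 germline windows (75%) and 21.6% of all tested. The E-box is known to be bound by MAX and its partners. A match is only a description of the sequence. To show where the letters lie, the windows of Stk31 (chr6:49395289-49395538, plus strand) and Hormad1 (chr3:95559427-95559676, plus strand), a meiotic chromosome-axis gene (7.61 to 0.81, difference -2.25), are printed below with ACGTG on either strand in capitals. They were picked after their values were seen, as lower genes of this list whose windows hold CACGTG.
Stk31: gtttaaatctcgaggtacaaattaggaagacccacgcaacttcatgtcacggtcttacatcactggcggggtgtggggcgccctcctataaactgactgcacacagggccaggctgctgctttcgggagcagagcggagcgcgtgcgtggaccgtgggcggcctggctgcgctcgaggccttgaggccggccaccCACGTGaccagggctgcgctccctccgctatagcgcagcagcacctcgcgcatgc
Hormad1: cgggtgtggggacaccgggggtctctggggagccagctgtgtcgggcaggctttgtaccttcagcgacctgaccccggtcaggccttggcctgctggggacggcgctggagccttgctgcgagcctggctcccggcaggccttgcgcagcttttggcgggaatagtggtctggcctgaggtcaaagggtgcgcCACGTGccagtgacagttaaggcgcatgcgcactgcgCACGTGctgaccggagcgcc

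Glycolysis genes were higher with few exceptions. Of 18 genes, 15 were past 2-fold higher and 1 lower, beside 21.9% and 24.3% of all genes, with a median of 2.67. All 15 had both E5.5 sexes above every E4.5 title number, as did 2203 of all 2848 higher genes. In few-marker cells 17 were higher and 1 lower, beside 31% and 22.4% of all genes there, with a median of 2.71. The list covers sugar uptake (Slc2a1, Slc2a3), the enzymes of the pathway in order (Hk1, Hk2, Gpi1, Pfkl, Pfkp, Aldoa, Tpi1, Gapdh, Pgk1, Pgam1, Eno1, Pkm), lactate formation and transport (Ldha, Slc16a1, Slc16a3) and Pdk1, the kinase that keeps pyruvate from the mitochondrion.

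Slc2a1 (Glut1), the main glucose carrier, gave 0, 40.6 and 235.02 at E4.5 and 232, 707.8 and 2026 at E5.5, a difference of 3.80, with the highest E4.5 cell just above the lowest E5.5 cell. Pfkl, the liver form of phosphofructokinase, gave 0, 11.9 and 183 and 284.4, 506.4 and 792, with no overlap and a difference of 4.18 (5.27 in few-marker cells). Its platelet form Pfkp was the member that was lower (90.3 to 39.4, -1.18; -2.66 in few-marker cells), but not without title number 9 (-0.33) or as a mean of log2 values (0.13). Hexokinase genes also split: Hk1 was higher (2.71 to 12.4, 1.85) and Hk2 within 2-fold (182 to 102.5, -0.83), though in few-marker cells Hk2 was higher (1.46).

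Eno1 (enolase) gave 0, 78.4 and 225.8 at E4.5 and 2923, 3986 and 4943 at E5.5, a difference of 5.72 (6.73 in few-marker cells). Pkm (pyruvate kinase) gave 10.4, 86.8 and 262.6 and 1299.5, 2085 and 3002, a difference of 4.45 (3.67). Ldha, the subunit of lactate dehydrogenase that favours lactate, gave 0, 35.4 and 261.05 and 3042, 4230.4 and 5891, a difference of 5.99 (5.62 in few-marker cells). Eno1 was at 1 or more in 22 and Ldha in 20 of 23 E4.5 cells, and since nearly every cell uses these enzymes, a listed 0 in these files can also be a failed estimate. In all 3 genes the lowest E5.5 cell was more than 4 times the highest E4.5 cell. Slc16a3 (Mct4), the exporter of lactate, was at most 17.5 at E4.5, where 7 of 23 cells had 1 or more, and spanned 204 to 1559 at E5.5, a difference of 7.82 (7.31 in few-marker cells).

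The E3.5 cells resembled the E4.5 cells in these genes, with means of 64.5 for Ldha, 53.1 for Eno1 and 1.18 for Slc16a3. Since E5.5 differs from E4.5 in cross and table too, the same genes were read in the cultures of the CAST/EiJ cross. Mean Eno1 was 831 in male 2i ES cells and 1006 in male Epi cells. Mean Ldha was 432 and 2341, and mean Slc16a3 was 2.88 and 37.2. The E5.5 level was thus above these cultures as well: for 5 of the 15 genes (Pfkl, Tpi1, Gapdh, Eno1, Slc16a3) both E5.5 sexes were at least 2-fold above each of the 11 other groups of the series. This pattern, with E5.5 apart from all groups of the other cross, was found for 56 of 2848 higher genes (1.97%) and 48 of 3160 lower genes (1.52%). Among the higher ones were Dnmt3b and 6 of the 8 higher visceral endoderm genes. Gapdh, Eno1, Pgk1, Ldha and Tpi1 have processed pseudogenes, and reads that match several copies could be split differently between tables and crosses, so the sizes of these differences are uncertain. Of annotated protein-coding copies, Eno1b was at 2.38 at E4.5, 0.0205 at E5.5, 18.1 in male 2i ES cells and 35.7 in 7-passage female Epi cells. E5.5 was at least 2-fold below each of the 11 other groups for this copy. Hif1a, the oxygen-regulated factor known to drive these genes, differed by 2.09 and Epas1 (Hif2a) by -3.51, both named after their values were seen.

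**Figure D4:**
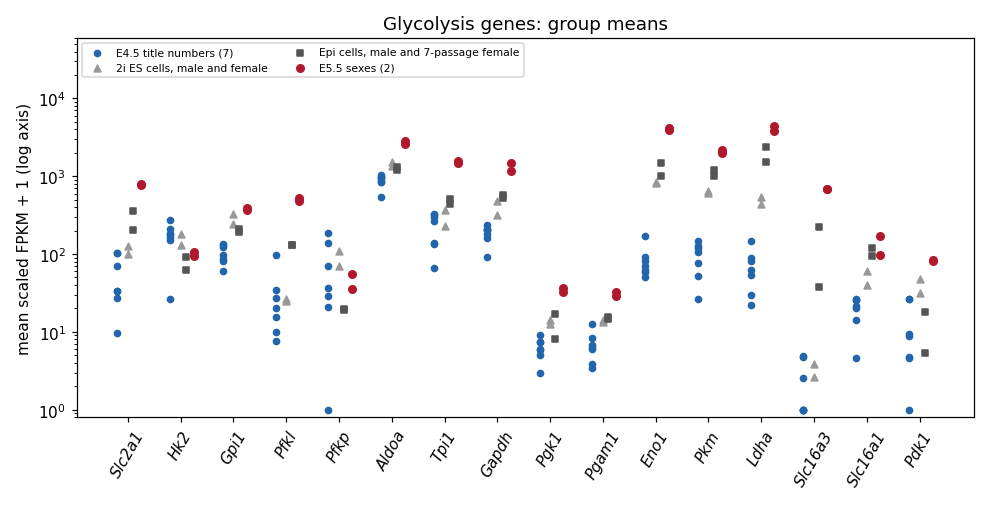
Group means of 16 glycolysis genes in scaled FPKM + 1 on a log axis. Blue points are the 7 E4.5 title numbers, red points the 2 E5.5 sexes, triangles male and female 2i ES cells, and squares male and 7-passage female Epi cells. Red points lie above all blue points for the genes shown other than Hk2 and Pfkp.

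The glycolysis promoters held the ACGTG letters, the core bound by hypoxia-inducible factors and contained in the E-box, in 7 of 17 windows (41.2%). Among the 15 higher genes 6 held it (40%), beside 4 of 10 windows of oxidative phosphorylation genes (40%) and 20.9% of all higher genes. The windows of Ldha (chr7:46845554-46845803, plus strand) and Slc16a1 (chr3:104638414-104638663, plus strand), the carrier Mct1 (20.3 to 113.6, difference 2.43), are printed because both genes were higher and hold CACGTG. Capitals mark ACGTG on either strand. The windows of Eno1, Pkm, Pfkl and Gapdh hold neither form within these 250 bases.
Ldha: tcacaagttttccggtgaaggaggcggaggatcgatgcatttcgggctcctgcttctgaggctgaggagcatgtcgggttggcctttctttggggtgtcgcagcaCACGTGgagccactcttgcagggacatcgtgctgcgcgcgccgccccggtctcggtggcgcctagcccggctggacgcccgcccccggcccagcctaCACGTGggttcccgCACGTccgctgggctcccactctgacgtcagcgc
Slc16a1: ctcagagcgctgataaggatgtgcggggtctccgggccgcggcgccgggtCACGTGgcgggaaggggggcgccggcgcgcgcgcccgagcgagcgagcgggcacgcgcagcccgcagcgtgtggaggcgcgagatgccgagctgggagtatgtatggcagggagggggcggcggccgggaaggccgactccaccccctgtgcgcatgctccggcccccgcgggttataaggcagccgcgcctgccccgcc

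Oxidative phosphorylation genes differed little. Of 15 genes none was past 2-fold higher and 4 were lower, beside 21.9% and 24.3% of all genes: Cox5a (-1.33), Cox6c (-1.25), Atp5g3 (-1.16) and Cox4i1 (-1.05). The median was -0.44, and 0.74 without rescaling, where Cox4i1 (0.13) and Atp5g3 (0.026) were on the other side of 0. Sdha (0.81) and Ndufa4 (0.80) were the members with the highest differences. Of 13 ribosomal protein genes, which have many pseudogenes, 3 were higher and none lower (median 0.25), beside 21.9% and 24.3% of all genes. Higher were Rplp0 (1.60), Rps6 (1.34) and Rps19 (1.09).

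Genes of FGF signalling, which pushes cells out of the naive state, differed in ligands and receptors. Fgf4, the ligand of the blastocyst, gave 0, 15.3 and 209.8 at E4.5 and 0, 0 and 8.15 at E5.5, a difference of -3.98 (-4.99 in few-marker cells). Fgf8 was listed at 0 in all E4.5 cells and reached 1 in 77 of 83 E5.5 cells, with 0, 123.98 and 756 at E5.5. Fgf15 was likewise at 0 at E4.5 and at a mean of 45.3 at E5.5. The receptors Fgfr1 (-1.13, but 0.023 without rescaling) and Fgfr2 (-4.03) were lower. Fgfr2 is a receptor of trophectoderm and primitive endoderm, and its difference was -1.30 in few-marker cells. Of the feedback inhibitors and targets of ERK, Dusp6 (1.79), Etv4 (2.17, and 3.05 without title number 10) and Spry1 (1.03) were higher, Dusp4 lower (-1.56) and higher in few-marker cells (2.04), and Spry2, Spry4, Spred1, Spred2 and Etv5 within 2-fold. In all, 6 of 16 genes were higher and 4 lower, beside 21.9% and 24.3% of all genes. In few-marker cells 7 were higher and 4 lower, beside 31% and 22.4% of all genes there.

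The Nodal pathway, which maintains the post-implantation epiblast, differed in ligands, convertases and inhibitors. Nodal itself was at 1 or more in 5 of 23 E4.5 and 78 of 83 E5.5 cells, with a difference of 2.14. Most of its E4.5 signal came from title number 9, with a mean there of 35.3, without which the difference was 5.46. In few-marker cells, 3 of which are of that number, it was 0.45. Its extracellular inhibitors Lefty1 (3.04, and 3.70 without title number 9) and Lefty2 (2.11, and 4.38), the cofactor Foxh1 (1.75) and the feedback repressor Skil (1.37) were higher. The related ligand Gdf3 was lower (86.9 to 3.14, -4.41), as were the convertases that cleave the Nodal precursor, Furin (-2.03) and Pcsk6 (-3.44). The receptors, the coreceptor Tdgf1 and the Smad genes stayed within 2-fold, so that 5 of 15 genes were higher and 3 lower, beside 21.9% and 24.3% of all genes. The list median was 0.43 in all cells and -0.12 in few-marker cells. There 5 genes were higher and 4 lower, beside 31% and 22.4% of all genes.

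Wnt pathway genes were higher in 8 of 15 cases and lower in 3, beside 21.9% and 24.3% of all genes. Beside Lef1 they were the ligand Wnt3 (0.279 to 14.7), the receptors Fzd2 (0.0649 to 14.9) and Fzd7 (0.723 to 9.41), Tcf7 (0.932 to 11.97), the target Sp5 (0.732 to 10.4, a difference of 2.72, and 3.49 without title number 10), the inhibitor Nkd1 (0.069 to 1.97) and the secreted antagonist Sfrp2, which was at 0 at E4.5 and at 41.1 at E5.5. The receptor Fzd5 was lower (-1.27). Axin2, the common readout of the pathway, was lower (-1.38) in all cells, higher in few-marker cells (1.46) and within 2-fold without title number 4 (-0.22). Dkk1, a secreted inhibitor, was also lower in all cells and higher in few-marker cells (-1.26 and 3.47). In few-marker cells 11 were higher and 2 lower, beside 31% and 22.4% of all genes there.

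Of 10 BMP pathway and Id genes 4 were higher and 1 lower, beside 21.9% and 24.3% of all genes. In few-marker cells 4 were higher and 2 lower, beside 31% and 22.4% of all genes there. Id1, a target of BMP, was higher (12.7 to 144.3, 3.41; 4.31 without title number 5) and Id2, which marks trophectoderm, lower (476 to 113.3, -2.06; 0.53 in few-marker cells). Bmp4, a ligand made by extraembryonic ectoderm, had means of 54.99 at E4.5, 25.1 in male and 105.5 in female E5.5 cells. Bmp4 is not among the markers that chose the few-marker cells. In E5.5 few-marker cells its mean was 9.34, and in the other 29 it was 109.96.

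Of 9 genes of the LIF and STAT3 pathway, which supports naive cells in culture, 6 were lower and none higher, with a median of -1.65, beside 24.3% lower among all genes. Only in 1 of them, Stat3, were both sexes below every title number. In few-marker cells 7 were lower and none higher (median -1.76). Stat3 gave 27.9, 116.6 and 319.8 at E4.5 and 0, 11.7 and 83.7 at E5.5, a difference of -2.86 (-2.67 in few-marker cells). Its target Socs3 (-1.81), the receptor subunits Lifr (-1.24), Il6st (-1.65, and -0.99 without title number 10) and Il6ra (-2.30) and the ligand Lif (-2.19) were lower too.

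Primitive streak genes, which mark the start of gastrulation, were already detected in many E5.5 cells. Of 8 genes 5 were higher and none lower, beside 21.9% and 24.3% of all genes. In few-marker cells 6 were higher and none lower, beside 31% and 22.4% of all genes there. Eomes of this list was also among the markers that chose those cells, so its value there is partly set by the choice. T (brachyury) was listed at 0 in all E4.5 cells and was at 1 or more in 64 of 83 E5.5 cells, with 0, 7.98 and 451 at E5.5. Mixl1, a homeobox gene of the streak, was at 1 or more in 78 cells, with 0, 26.6 and 1223. Mesp1, a factor of nascent mesoderm, was at 1 or more in 40 cells, where the median over all cells was 0.843 and the highest 901. In each of the 3 genes the highest cell was far above the median. Eomes (-0.53), Gsc (0.30) and Evx1 (0.55) stayed within 2-fold. Of 4 neuroectoderm genes that could be tested none was higher and 2 were lower, Pax6 (-1.83, and -0.90 without title number 10) and Hesx1 (-1.54, and 0.22 without title number 9).

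Of 19 adhesion and polarity genes 5 were higher and 7 lower, beside 21.9% and 24.3% of all genes. In few-marker cells 7 were higher and 3 lower, beside 31% and 22.4% of all genes there. The epithelial cadherin Cdh1 (0.05) and Epcam (0.12) stayed within 2-fold. Podxl, a sialomucin of the surface that faces the lumen, gave 0, 0 and 23.8 at E4.5 and 8.51, 26.3 and 85.9 at E5.5, a difference of 3.76 that was 4.57 without title number 5. Among claudins, the seal proteins of tight junctions, Cldn6 was higher (125.1 to 701.8, 2.48) and Cldn4 lower (969.7 to 23.01, -5.34; -3.64 in few-marker cells). Cldn7 was lower in all cells (-1.26) and higher in few-marker cells (1.55). The neural cadherin Cdh2 (2.03) was also higher. The list median of -0.18 was positive without rescaling and in few-marker cells (0.14).

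Basement membrane genes were lower in 10 of 11 cases, beside 24.3% of all genes (median -2.11), and in 10 of 11 in few-marker cells (median -1.81). Lama1, the alpha chain of laminin-111, gave 1.02, 8.89 and 150.9 at E4.5 and 0, 0 and 2.59 at E5.5, a difference of -4.56 (-2.93). Lamb1 (-2.42), Lamc1 (-2.84), the linker Nid1 (-3.73), the collagens Col4a1 (-1.93) and Col4a2 (-2.11) and fibronectin, Fn1 (-2.29), went with it. Primitive endoderm and trophectoderm are known sources of these proteins. The medians of their marker lists were -1.43 and -2.95 in all cells. In few-marker cells, chosen in part by these markers, they were 2.81 and 0.83. The part of these tissues in the basement membrane values was not tested. Sparc was the exception (-0.34).

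Cell cycle genes were higher in 13 of 18 cases and lower in none, beside 21.9% and 24.3% of all genes, with a median of 1.40 (1.74 in few-marker cells). Ccnd1 (cyclin D1) gave 0, 1.15 and 76.1 at E4.5 and 24.2, 190.5 and 347 at E5.5, a difference of 4.28, and 6.06 without title number 9. Ccne1 (cyclin E1) went from 35.9 to 323, Ccnd2 from 0.513 to 12.7, and the growth regulators Mycn (1.49) and Mycl (2.24) were higher. Myc was at the threshold (1.09). Mki67 (0.03) and Top2a (0.23), which mark cycling cells, stayed within 2-fold in all cells. In the 5 few-marker E4.5 cells, however, they were low, at means of 0.0549 and 24.96 against 7.17 and 179 over all 23, and Cdk1 was at 136.5 against 461.

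Of 10 apoptosis genes 6 were higher and none lower, beside 21.9% and 24.3% of all genes. Among them were Pmaip1 (Noxa; 5.89 to 85.2, 3.64), Bak1 (1.91) and Trp53 (1.39). Without title number 9 Pmaip1 differed by 4.27 and Trp53 by 2.24. In few-marker cells 4 were higher and 1 lower, beside 31% and 22.4% of all genes there, and Trp53 stayed within 2-fold (0.15). Of 6 genes of Polycomb complex 2, which writes a repressive histone mark, 3 were lower and none higher, beside 24.3% and 21.9% of all genes. Lower were Suz12 (-1.91), Jarid2 (-1.44) and Mtf2 (-1.03, but 0.13 without rescaling). That list's median, -0.96, was 0.19 without rescaling.

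Imprinted genes were higher in 8 of 11 cases and lower in none, with a median of 2.02, beside 21.9% higher among all genes. In few-marker cells the counts were the same and the median was 1.33. Phlda2, a brake on placental growth, went from 1.5 to 187 (6.23), with 129 in male and 368 in female cells. Mest (7.46 to 221), Nnat (10.96 to 94.6, a difference of 3.00, and 3.74 without title number 10), Grb10 (10.2 to 83.4) and Peg3 (2.03 to 17.3) were also higher. Igf2 (0.43) and Igf2r (-0.75) stayed within 2-fold.

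Immediate-early genes answer to stimulation and to cell dissociation alike. Of 8 tested, 4 were higher and none lower, beside 21.9% and 24.3% of all genes. In few-marker cells 5 were higher and 1 lower, beside 31% and 22.4% of all genes there. The list median in all cells was 0.99, and 1.74 without title number 9. Fos gave 0, 0 and 8.03 at E4.5, and 0, 46.3 and 223 in male and 0, 13.4 and 38.3 in female E5.5 cells. Egr1, a target of ERK as well, was at 0 at E4.5 and at 1 or more in 76 of 83 E5.5 cells. Fosb was also at 0 at E4.5, and Dusp1, a phosphatase of the same response, differed by 1.43 (0.26 in few-marker cells, 2.41 without title number 9). The heat shock genes Hspa1a and Hspa1b of this list were under a mean of 1 in both stages. The part of handling in these values was not tested.

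**Figure D5:**
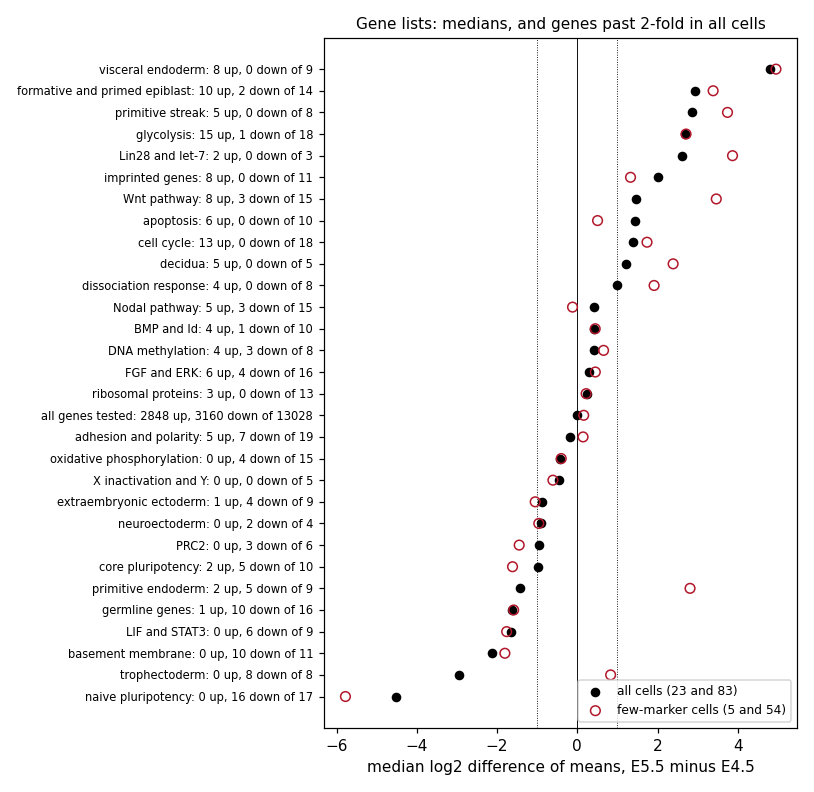
Median log2 difference (E5.5 minus E4.5) of each gene list with at least 3 tested genes, in all cells (black, 23 and 83 cells) and in few-marker cells (open red, 5 and 54 cells); row labels give the genes at least 2-fold higher and lower in all cells. Dotted lines mark 2-fold. The trophectoderm, primitive endoderm, Nodal and adhesion lists lie on opposite sides of 0 in the 2 sets of cells.

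The genes with the largest differences were named by rule: the 12 highest and 12 lowest with both sexes beyond all title numbers, a mean of 10 or more in the higher stage and a level of 1 or more there in 50% of cells or more. The higher ones were Spink1, Ttr, Ldhb, Slc16a3, Rbp4, Fgf8, Gpc3, Apoa1, Nt5dc2, Fgf5, Hmga1 and Pclaf. Ttr, Rbp4 and Apoa1 are products of visceral endoderm. Spink1, a trypsin inhibitor, went from 1.74 to 3004, with 2201 in male and 5534 in female cells, and Ttr had 251.7 and 796. The log2 difference of Spink1 was 10.10, 11.55 without title number 5 and 7.47 without cells that hold 3 markers of another cell type. Ldhb, the other lactate dehydrogenase subunit, was at 1 or more in 1 of 23 E4.5 and all 83 E5.5 cells (0.108 to 319, 8.18). Gpc3, a glypican that binds growth factors, went from 0.0187 to 173 and Hmga1, a chromatin protein, from 1.78 to 329. Pclaf, a partner of the replication clamp, went from 0.0796 to 108.1.

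The lower ones were Fam25c, Crxos, Khdc3, Calcoco2, BC053393, C130073F10Rik, Fbp2, Pramel6, Gm10260, Pramel7, Havcr1 and AA467197. Khdc3, part of the maternal complex of the egg, was at a mean of 988 at E4.5 and listed at 0 in all E5.5 cells, and so were the PRAME-like genes Pramel6 (360.1) and Pramel7 (269.9). Crxos, a homeobox gene, was at 1 or more in all 23 E4.5 cells and 1 of 83 E5.5 cells (1485 to 0.0276). Fbp2, an enzyme of gluconeogenesis that opposes phosphofructokinase, went from 647 to 0.3 (-8.96) and was also high in the cells labelled E3.5 (1104). Gm10260 differs from the others: it went from 791 to 1.71, yet it lay between 224.8 and 791 in all 11 groups of the CAST/EiJ cross, cultures and neurons included. Both E5.5 sexes were the only groups near 0, so that for this gene stage, cross and table cannot be told apart.

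The same genes were set beside the change from naive to primed state in culture, from male 2i ES cells to male Epi cells; both derive from the male line. There 2714 of 12815 tested genes were at least 2-fold higher in Epi cells (21.2%) and 1751 lower (13.7%). Of the 2613 genes higher at E5.5 that could be tested in both, 1049 (40.1%) were higher in Epi cells and 167 (6.39%) lower. Of the 2571 genes lower at E5.5, 877 (34.1%) were lower in Epi cells and 294 (11.4%) higher. Fgf5 was at 0.0328 in 2i and 264.3 in Epi cells, Otx2 at 0.687 and 315, and Dppa5a at 8229.5 and 5.15. Dnmt3b was at 16.7 and 114.8, both under the E5.5 mean of 1052. The Epi groups were not alike. Mean Dppa5a was 0.285 in 7-passage female Epi cells but 6363 in the other female Epi cells. In the latter Fgf5 was at 25.2, Otx2 at 55.4 and Zfp42 at 124.97. Mean Utf1 was 17.8 in male, 554 in 7-passage female and 1183 in other female Epi cells, beside 1069 at E5.5. Mean Pou3f1 was 1.73, 12.4 and 5.71 in the same order, beside 15.2 at E5.5. Mean T was 275.5, 229.4 and 3.77, beside 26.3 at E5.5.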

How the data were processed

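Single cells were profiled from SMART-seq2 libraries (full-length copies of polyadenylated RNA) cut by Tn5, as the labels' protocols say. The deposited values are FPKM per gene, made by the authors with Cuffnorm; the submitters' processing notes name STAR 2.4.1, Cufflinks, Cuffnorm 2.2.1 and build mm10. The annotation and strand setting are not given in the sources used here. FPKM keeps no depth, so no count test was run. Gene IDs were named from GENCODE vM21; each cell was scaled to 1000000 over protein-coding genes, which sets their sum equal and makes every gene relative to the rest. Stage means were compared as log2 of (mean + 1), with a mean of at least 1 in either stage. A gene counted as higher or lower past 2-fold; each stage is 1 sample, and no test was run. E4.5 cells and E5.5 cells were also split by title number and sex. Intervals for shares of cells are exact 95% ones (Clopper-Pearson) and hold no error beyond counting. Highest correlations between deposited FPKM columns were 0.981 at E4.5 and 0.990 at E5.5, so no column was a copy of another. Doublets were not called. Members and 31 gene lists were chosen with earlier results of these data known. Genes named are those of the lists, plus the 12 largest differences each way, given a mean of 10 or more and presence in 50% of cells or more at the higher stage and both sexes beyond all title numbers. Alternatives changed the scaling, the pseudocount, the filter, the averaging and the cells used. Promoter windows came from RefSeq (GRCm38.p6). Python 3.11.15, numpy 2.4.6, pandas 2.3.3 and scipy 1.17.1 were used, and the scripts were tested on simulated data. Serum ES cells and motor neurons entered only the check of levels across groups. The values of 1 listed gene are not reported here.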

Additional observations from a re-analysis of the deposited data

Results flagged for a closer look

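Xist, the RNA of X inactivation, lies outside the protein-coding comparison and showed a signal in the labelled female E5.5 cells above that in the male cells. Its mean was 13.4 in female cells, with 1 or more in 20 of 20, and 0.368 in male cells, with 1 or more in 5 of 63. At E4.5, where no sex is labelled, it was at 1 or more in 12 of 23 cells, at a mean of 47.3. Tsix, which overlaps Xist on the opposite strand, had means of 23.7 in female and 1.12 in male E5.5 cells and 93.9 at E4.5. Since the strand setting is not given, the signal cannot be divided between Xist and Tsix.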

How the results depend on the processing

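The deposited FPKM without rescaling gave 6007 higher and 1090 lower genes, against 2848 and 3160. Scaling over all rows gave 2094 lower genes and a mean of log2 values over cells 1906. The other alternatives stayed within 1.5 times of both counts. The median of the primitive endoderm list, -1.43, was 0.19 without cells that hold 3 markers of another cell type (5 and 6 cells left) and 2.81 in few-marker cells. That of the trophectoderm list, -2.95, was 0.83 in few-marker cells and 0.48 with the 8 E4.5 cells of a trophectoderm sum under 1000. The few-marker setting leaves out cells by the extraembryonic ectoderm list at both stages and by the primitive endoderm list at E4.5 only. It does not use the trophectoderm list as such, and the setting by trophectoderm sum leaves out E4.5 cells only. The cause of these and of the other shifts was not tested. Leaving out 1 title number at a time gave 2751 to 2997 higher and 2892 to 3279 lower genes. Without title number 10 the DNA methylation median was 1.16, and without title number 8 the Sox17 difference was -1.53. Some genes named in the text, such as Gata6 and Wnt7b, were not followed through the alternatives. Of 178 genes that were followed and were past 2-fold, 56 came under 2-fold in at least 1 of 24 alternatives and 18 changed sign in at least 1. Changed signs were as follows: in few-marker cells Ddx4 -0.067, Dusp4 2.04, Id2 0.53, Axin2 1.46, Dkk1 3.47, Cldn7 1.55, Sox17 4.05, Gata3 1.10, Krt7 2.91, Krt8 1.71, Krt18 1.83, Elf5 0.56; without cells that hold 3 markers of another cell type Ddx4 -0.045, Dusp4 2.10, Axin2 1.25, Dkk1 0.26, Cldn7 1.58, Sox17 2.07, Krt7 3.26, Krt8 0.90, Krt18 1.49; with the 8 E4.5 cells of low trophectoderm sum Id2 1.53, Cldn7 1.53, Gata3 0.57, Krt7 2.09, Krt8 1.32, Krt18 1.73, Elf5 0.39; in deposited FPKM Fgfr1 0.023, Cox4i1 0.13, Atp5g3 0.026, Mtf2 0.13; as a mean of log2 values Dkk1 0.013, Pfkp 0.13; and without title number 9 Hesx1 0.22. No paired analysis was possible because the labels name no animals and each stage counts as 1 sample. Depth is unknown, so a gene listed at 0 may be present below detection.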
